A study of Mus musculus with 32 samples.

Results

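The 9 genes described here encode surface or secreted molecules through which a macrophage or dendritic cell stimulates or restrains a T cell: the receptor gene Cd40, the co-stimulatory ligand genes Cd80, Cd86, Icosl and Tnfsf9, the maturation gene Cd83, and the checkpoint ligand genes Cd274, Pdcd1lg2 and Lgals9. They were chosen by name, and each had 1 row in the count table of every library, so that 9 of the 24421 genes in the tables are considered. The series measured RNA by sequencing in macrophages sorted out of epididymal fat (C57BL/6J mice). KO mice lacked A20, the product of the gene Tnfaip3, in myeloid cells, and WT mice were wild type. The diet, fed for 12 weeks, was high in fat (HFD) or standard (SD). The CD11c+ population was sorted as CD206 low and CD11c high, and the CD206+ population as CD206 high and CD11c low. The 8 groups had 4 libraries each: KO HFD CD11c+, WT HFD CD11c+, KO SD CD11c+, WT SD CD11c+, KO HFD CD206+, WT HFD CD206+, KO SD CD206+ and WT SD CD206+. The sources used here give neither the Cre driver, nor the age of the mice, nor the number of mice behind a library, so p-values measure the spread between libraries, which may in part be technical.

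A naive T cell responds fully when it receives an antigen signal through its receptor together with a second signal from the presenting cell. CD80 and CD86 give that second signal through CD28 and withdraw it through CTLA4. ICOS ligand acts on ICOS, and the product of Tnfsf9 acts on CD137. CD40 works in the other direction: it receives CD40 ligand from the T cell and signals through TRAF proteins and NF-kB in the presenting cell. PD-L1 (Cd274) and PD-L2 (Pdcd1lg2) bind the inhibitory receptor encoded by Pdcd1, and galectin-9 (Lgals9) is a lectin described as a ligand of the inhibitory receptor TIM3 (Havcr2). A20 is a ubiquitin-editing enzyme known for ending NF-kB signalling, and macrophages in the fat of obese animals are known to gain CD11c.

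The libraries held gene counts of 17.6 to 23.8 in units of 1e6 (median 20.2). Levels are given as counts per 1e6 gene counts after TMM scaling (CPM). The labels were checked against 3 genes. Tnfaip3 ranged over 167 to 474 CPM in the 16 KO libraries and 486 to 1647 CPM in the 16 WT libraries. Itgax, which encodes CD11c, ranged over 146 to 379 CPM in CD11c+ libraries and 1.25 to 50.3 CPM in CD206+ libraries. Mrc1, which encodes CD206, ranged over 401 to 722 CPM in CD11c+ libraries and 1290.0 to 2147 CPM in CD206+ libraries. None of these ranges overlapped. Among CD206+ libraries, those of WT HFD had the highest Itgax (20.7 to 50.3 CPM), and the others lay at 1.25 to 8.24 CPM. Among WT libraries, those of WT SD CD11c+ had the highest Tnfaip3 (1349 to 1647 CPM), and the others lay at 486 to 894 CPM. Macrophage markers (9 genes, led by Lyz2) summed to 17334 to 36105 CPM over all libraries. The WT SD CD11c+ libraries held the highest sums, at 31821 to 36105 CPM, and the others lay at 17334 to 24589 CPM. Markers of other cells were present at lower levels and moved between groups. The 16 dendritic cell markers, led by Clec10a and Cd209a, summed to 341 to 910.3 CPM in KO libraries and 183 to 1077 CPM in WT libraries, with no marker at 0 in a whole group. The 12 T and NK cell markers, led by Cd4 and Il7r, summed to 41.1 to 153 CPM in KO libraries and 13.0 to 111 CPM in WT libraries. The WT SD CD11c+ libraries also stood apart for immediate early genes, which are induced within minutes of stimulation or tissue handling. The 28 on the list summed to 21827 to 27886 CPM in WT SD CD11c+ libraries, while the other CD11c+ libraries lay at 10778 to 18393 CPM. The CD206+ libraries of WT SD were highest in the mean and overlapped those of KO SD. The part of these genes and cells in the results below was not tested, and in sorted bulk samples fewer cells of a type and less RNA per cell cannot be told apart.

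Per kilobase of exon, Cd83 was the most abundant of the 9 genes, with group means of 329 to 792 CPM per kilobase. Tnfsf9 followed with 45.6 to 106 and Lgals9 with 35.5 to 97.1 CPM per kilobase. Cd86, Cd40, Cd274, Icosl and Cd80 came next in that order of their mean over the groups. Pdcd1lg2 was the least abundant, at 0.151 to 4.32 CPM per kilobase. The group means of Cd40 differed 9.01-fold between the highest group (KO SD CD206+) and the lowest (WT SD CD11c+), whereas those of Cd83 differed 2.40-fold between WT HFD CD206+ and KO HFD CD11c+.

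**Figure D1:**
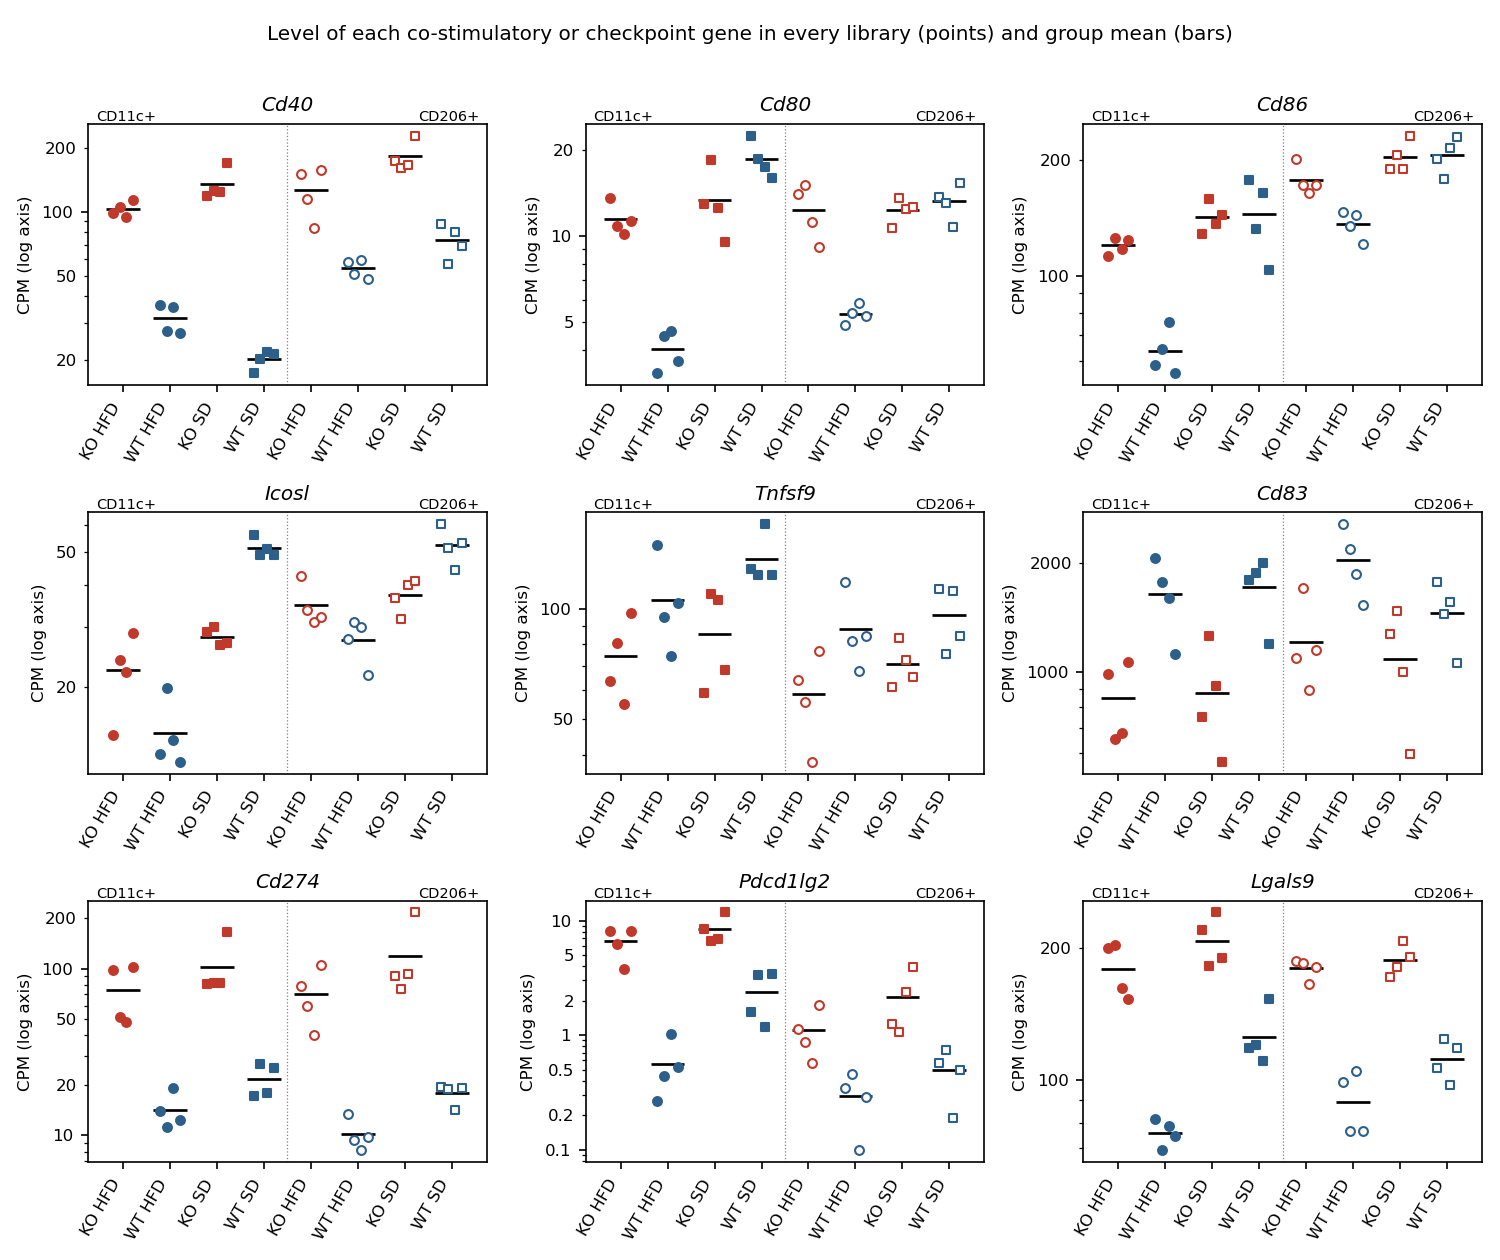
Level of each gene in every library, in CPM on a log axis, with KO groups in red and WT groups in blue, circles for HFD and squares for SD, filled points for CD11c+ and open points for CD206+ libraries, and a black bar at each group mean of 4 libraries. All Cd274 values of the KO libraries (40.2 CPM or more) lie above all of those of the WT libraries (26.8 CPM or less), while the 2 genotypes are mixed for Cd86 and Icosl.

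The first question was what loss of A20 did to these genes within each diet and population. Genes tested across the whole table numbered 13453, all 9 among them, with edgeR's quasi-likelihood test and a threshold of adjusted p under 0.05 (Benjamini-Hochberg over the genes of a contrast). In CD11c+ cells on HFD, 7 genes rose and 1 fell in KO, where 38.0% of all genes were called (18.6% higher and 19.4% lower). On SD the CD11c+ cells of KO mice had 4 genes that rose and 4 that fell (26.8% of all genes called, 13.2% higher and 13.6% lower). CD206+ cells of KO mice on HFD had 6 that rose and 1 that fell (21.8% called, 10.5% higher and 11.3% lower). Those on SD had 4 that rose and 1 that fell (24.5% called, 11.8% higher and 12.7% lower). The libraries of KO and WT did not overlap for 7, 6, 7 and 5 of the 9 genes in the same order, against 34.7%, 23.4%, 25.6% and 27.6% of all genes. Cd40, Cd274, Pdcd1lg2 and Lgals9 were the 4 genes that rose in KO in all 4 comparisons. Cd80, Cd86 and Icosl gave calls that differed between the diets, and Cd83 and Tnfsf9 fell wherever they were called. The split over all genes depended on the scaling. In CD206+ cells it was 1148 genes higher and 1971 lower on HFD with library totals alone, against 1408 genes higher and 1522 lower with TMM, and 1256 genes higher and 2049 lower on SD, against 1594 genes higher and 1706 lower with TMM. In CD11c+ cells it was 2132 genes higher and 3013 lower on HFD with library totals alone, against 2504 genes higher and 2612 lower with TMM, and 1998 genes higher and 1512 lower on SD, against 1775 genes higher and 1832 lower with TMM. The median log2 fold change of the 9 genes was 1.24 in CD11c+ and 1.01 in CD206+ cells on HFD, and -0.03 and -0.01 on SD, while that of all genes tested lay between -0.03 and -0.00.

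**Figure D2:**
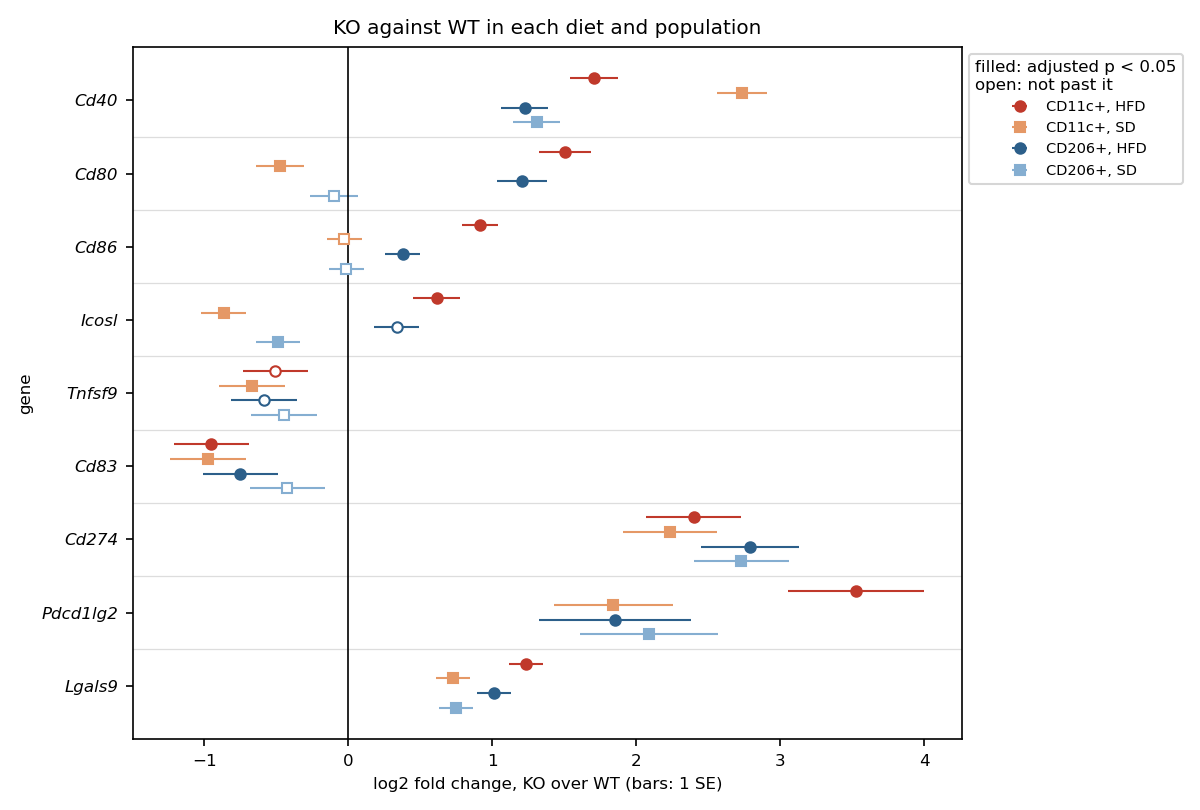
Log2 fold change of KO over WT for each gene in the 4 combinations of population and diet, with bars of 1 SE and filled symbols where adjusted p was under 0.05 (edgeR quasi-likelihood test, 4 libraries against 4). Cd274 lies between 2.24 and 2.79 in all 4, and Cd80 and Icosl lie above 0 on HFD and below 0 on SD.

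Marker lists of other cells moved in the same comparisons. Of the 16 dendritic cell markers, KO had 14 higher and 0 lower in CD11c+ cells on HFD, 5 higher and 3 lower on SD, 5 higher and 0 lower in CD206+ cells on HFD and 2 higher and 6 lower on SD. Of 11 tested T and NK cell markers, KO had 8 higher and 1 lower, 3 higher and 1 lower, 8 higher and 1 lower and 6 higher and 0 lower in the same order. Of the 28 immediate early genes, KO had 12 higher and 2 lower, 5 higher and 13 lower, 7 higher and 0 lower and 2 higher and 6 lower. Of the 10 stromal markers, led by Col3a1 and Dcn, KO had 1 higher and 8 lower, 0 higher and 0 lower, 0 higher and 9 lower and 0 higher and 2 lower. The stromal markers summed to 86.0 to 138 CPM in KO HFD CD11c+ libraries, against 198 to 598 CPM in WT HFD CD11c+ libraries, and to 202 to 282 CPM in KO HFD CD206+ libraries, against 436 to 1901 CPM in WT HFD CD206+ libraries. The 8 endothelial markers had 0 higher and 3 lower, 0 higher and 5 lower, 0 higher and 0 lower and 0 higher and 7 lower in KO, and the 8 adipocyte markers 3 higher and 1 lower, 1 higher and 1 lower, 6 higher and 0 lower and 1 higher and 4 lower. Of 6 tested neutrophil markers, KO had 3 higher and 0 lower, 1 higher and 0 lower, 4 higher and 0 lower and 2 higher and 0 lower. The 8 neutrophil markers, led by Csf3r and Cxcr2, summed to 54.3 to 112 CPM in KO libraries and 8.73 to 53.3 CPM in WT libraries, without overlap. Of the 8, 2 were at 0 throughout WT HFD CD11c+, WT HFD CD206+ and WT SD CD11c+ libraries. In each KO SD group 1 was at 0 throughout, and in the other groups none was. Of the B cell, mast cell and mesothelial markers, at most 2 of a list were called in a comparison of KO with WT. Dendritic cells are known to carry Cd80, Cd83, Cd86, Cd40 and Pdcd1lg2, and the part of these markers in the differences between KO and WT was not tested.

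Cd40 (chromosome 2, 165055627 to 165072948, GRCm38) encodes the receptor for the T cell's CD40 ligand. It stood at 98.5, 105, 94.7 and 113 CPM in KO HFD CD11c+ libraries, against 36.5, 27.3, 35.5 and 26.8 CPM in WT HFD CD11c+ libraries. On SD it had 118, 125, 124 and 170.4 CPM in KO CD11c+ libraries, against 17.3, 20.3, 21.9 and 21.4 CPM in WT CD11c+ libraries. Every KO CD11c+ library was thus above every WT one on both diets. CD206+ libraries had, on HFD, 151, 115, 83.9 and 157 CPM in KO and 57.9, 50.8, 59.4 and 48.3 CPM in WT. Those on SD had 173, 161, 166 and 228 CPM in KO and 87.5, 56.9, 80.7 and 68.9 CPM in WT. The genotypes did not overlap here either, and the highest KO value on SD came from library 4 in both populations. The log2 fold change was 1.71 ± 0.17, adjusted p = 2.53e-09 in CD11c+ cells on HFD and 2.74 ± 0.17, adjusted p = 1.75e-12 on SD. In CD206+ cells it was 1.23 ± 0.16, adjusted p = 1.08e-06 on HFD and 1.31 ± 0.16, adjusted p = 4.76e-07 on SD. The KO-to-WT difference in CD11c+ cells was smaller on HFD than on SD (the interaction, which is the log2 fold change on HFD minus that on SD, was -1.03 ± 0.23, adjusted p = 0.00106). On SD it was larger in CD11c+ than in CD206+ cells (interaction 1.43 ± 0.23, adjusted p = 2.53e-04).

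Within WT mice, Cd40 moved with diet in opposite directions in the 2 populations. On HFD it was higher than on SD in CD11c+ cells (0.64 ± 0.17, adjusted p = 0.00218) and lower than on SD in CD206+ cells (-0.44 ± 0.16, adjusted p = 0.0409). The test of that difference gave 1.08 ± 0.23, adjusted p = 6.43e-04. The call in CD206+ cells was lost in 6 of 32 fits that left out 1 library, each time WT HFD CD206+ library 1, 2 or 4 or WT SD CD206+ library 1, 3 or 4, with adjusted p up to 0.152. In KO mice no diet difference was called, with log2 fold changes of -0.39 ± 0.16 in CD11c+ and -0.52 ± 0.16 in CD206+ cells. Between populations, Cd40 was lower in CD11c+ than in CD206+ cells of WT mice on HFD (-0.78 ± 0.16, adjusted p = 0.00100) and on SD (-1.86 ± 0.17, adjusted p = 1.66e-10). In KO mice it was lower on SD (-0.44 ± 0.16, adjusted p = 0.0231), a call lost in 4 of 32 fits without KO SD CD11c+ library 1, 2 or 3 or KO SD CD206+ library 4, with adjusted p up to 0.111. On HFD the KO difference was -0.30 ± 0.16, adjusted p = 0.127, which missed the threshold. WT SD CD11c+ cells therefore had the lowest Cd40 of the 8 groups, at 20.2 ± 2.04 CPM (SD, n = 4), against 73.5 ± 13.4 CPM in WT SD CD206+ cells.

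Cd274 (chromosome 19, 29367455 to 29388095) encodes PD-L1. It had 98.02, 51.2, 47.6 and 102 CPM in KO HFD CD11c+ libraries, against 14.0, 11.2, 19.1 and 12.4 CPM in WT HFD CD11c+ libraries. It had 80.4, 82.1, 82.4 and 166 CPM in KO SD CD11c+ libraries, against 17.2, 26.8, 17.96 and 25.3 CPM in WT SD CD11c+ libraries. KO library 4 on SD was the highest of its group, and even the lowest KO library exceeded the highest WT library. In CD206+ cells on HFD, Cd274 had 78.4, 59.3, 40.2 and 105 CPM in KO and 13.5, 9.33, 8.15 and 9.79 CPM in WT. In CD206+ cells on SD it had 90.4, 75.9, 93.4 and 217 CPM in KO and 19.5, 18.9, 14.3 and 19.1 CPM in WT, with KO library 4 again apart from the other 3. Over all libraries the 16 KO values ran from 40.2 to 217 CPM and the 16 WT values from 8.15 to 26.8 CPM, with no overlap. The log2 fold change was 2.40 ± 0.33, adjusted p = 1.09e-06 in CD11c+ cells on HFD and 2.24 ± 0.33, adjusted p = 4.41e-06 on SD. In CD206+ cells it was 2.79 ± 0.34, adjusted p = 2.49e-07 on HFD and 2.73 ± 0.33, adjusted p = 3.39e-07 on SD, so that KO cells held 4.71 to 6.92 times the WT level. No interaction of Cd274 with diet or population was called. The 4 diet differences were negative (-0.46 to -0.81 on the log2 scale, HFD over SD) and none was called. Between populations Cd274 was not called, and in WT mice on HFD it was higher in CD11c+ cells once same-numbered libraries were paired (log2 0.47, adjusted p = 0.0303).

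Pdcd1lg2 (chromosome 19, 29410919 to 29471161), which encodes the second ligand of the same receptor, PD-L2, lies beside Cd274 on chromosome 19 and was far less abundant. It had 8.17, 6.29, 3.77 and 8.03 CPM in KO HFD CD11c+ libraries, against 0.263, 0.439, 1.02 and 0.531 CPM in WT HFD CD11c+ libraries. It had 8.51, 6.64, 6.96 and 11.8 CPM in KO SD CD11c+ libraries, against 1.59, 3.33, 1.18 and 3.39 CPM in WT SD CD11c+ libraries. The genotypes did not overlap on either diet, although the WT HFD values rested on 5, 9, 20 and 11 reads. CD206+ libraries on HFD had 1.13, 0.876, 0.568 and 1.82 CPM in KO and 0.346, 0.457, 0.0988 and 0.285 CPM in WT, the WT values resting on 8, 10, 2 and 6 reads. CD206+ libraries on SD had 1.24, 1.07, 2.39 and 3.91 CPM in KO and 0.574, 0.740, 0.190 and 0.491 CPM in WT. KO libraries were above WT libraries in both, with the order of the groups set by population as well as genotype. The log2 fold change of KO over WT was 3.53 ± 0.47, adjusted p = 6.42e-07 in CD11c+ cells on HFD and 1.84 ± 0.42, adjusted p = 0.00121 on SD. In CD206+ cells it was 1.85 ± 0.53, adjusted p = 0.0105 on HFD and 2.09 ± 0.48, adjusted p = 0.00173 on SD. Without KO HFD CD206+ library 4 the CD206+ HFD call was lost (log2 1.49, adjusted p = 0.0608).

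Pdcd1lg2 also differed between the populations. It was higher in CD11c+ than in CD206+ cells of KO mice on HFD (2.57 ± 0.44, adjusted p = 2.55e-05) and on SD (1.98 ± 0.42, adjusted p = 2.56e-04). It was likewise higher in CD11c+ cells of WT mice on SD (2.22 ± 0.48, adjusted p = 2.19e-04). In WT mice on HFD, where both populations were at or near 1 CPM or below, the difference was 0.90 ± 0.57, adjusted p = 0.266. With diet, it fell on HFD in WT CD11c+ cells (-2.05 ± 0.48, adjusted p = 6.75e-04). In KO CD11c+ cells the diet difference was -0.37 ± 0.39, adjusted p = 0.850, and the test between the genotypes gave 1.69 ± 0.62, adjusted p = 0.0386, a call lost in 11 of 32 fits that left out 1 library. Those libraries were KO HFD CD11c+ 1, 2 and 4, WT HFD CD11c+ 1, 2 and 4, KO SD CD11c+ 1, 2 and 3, and WT SD CD11c+ 2 and 4, with adjusted p up to 0.0918. Dendritic cell markers differed between the populations too: of the 16, CD11c+ cells had 11 higher and 3 lower than CD206+ cells in KO mice on HFD, 11 higher and 4 lower in KO mice on SD, 7 higher and 3 lower in WT mice on HFD and 8 higher and 3 lower in WT mice on SD. Their sum, led by Clec10a and Cd209a, was 341 to 722 CPM in KO HFD CD11c+ libraries, against 612 to 871 CPM in KO HFD CD206+ libraries, and so was lower in the mean in CD11c+ cells. The part of these markers in the Pdcd1lg2 difference was not tested. The annotation places an antisense gene over Cd274 (AC119228.1) and over Pdcd1lg2 (A930007I19Rik), and the sources used here do not give the strand setting of the counting. Reads of these partners cannot be told apart from those of the 2 ligands.

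Lgals9 (chromosome 11, 78962974 to 78984946), encoding galectin-9, was the third checkpoint ligand gene that rose in KO throughout. It had 199, 202, 162 and 153 CPM in KO HFD CD11c+ libraries, against 81.5, 69.2, 78.6 and 74.4 CPM in WT HFD CD11c+ libraries. It had 219, 181, 240.3 and 189 CPM in KO SD CD11c+ libraries, against 118, 120.0, 111 and 153 CPM in WT SD CD11c+ libraries. The lowest KO library exceeded the highest WT library on both diets, by a narrower gap on SD. In CD206+ cells on HFD, Lgals9 had 187, 185, 165 and 181 CPM in KO and 98.8, 76.4, 105 and 76.4 CPM in WT. In CD206+ cells on SD it had 172, 181, 207 and 190.5 CPM in KO and 107, 124, 97.2 and 118 CPM in WT, again without overlap. Over all libraries the 16 KO values ran from 153 to 240.3 CPM and the 16 WT values from 69.2 to 153 CPM. The log2 fold change was 1.24 ± 0.12, adjusted p = 2.20e-09 in CD11c+ cells on HFD and 0.73 ± 0.12, adjusted p = 2.16e-05 on SD, and 1.01 ± 0.12, adjusted p = 1.48e-07 in CD206+ cells on HFD and 0.75 ± 0.12, adjusted p = 1.85e-05 on SD. In WT mice Lgals9 fell on HFD in CD11c+ cells (-0.72 ± 0.12, adjusted p = 8.70e-06) and in CD206+ cells (-0.32 ± 0.12, adjusted p = 0.0401). The CD206+ call was lost in 14 of 32 fits that left out 1 library: each WT HFD CD11c+ library, WT HFD CD206+ 2 and 4, WT SD CD206+ 1, 2 and 4, KO HFD CD206+ 3, KO SD CD11c+ 4, and KO SD CD206+ 2, 3 and 4, with adjusted p up to 0.168. The larger KO-to-WT difference of CD11c+ cells on HFD was called (interaction 0.51 ± 0.17, adjusted p = 0.0210), but not without KO HFD CD11c+ library 1 or 2 or WT SD CD11c+ library 4 (adjusted p up to 0.0644). Lgals9 did not pass the test between the populations in any of the 4 comparisons (-0.23 to 0.17 on the log2 scale).

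The promoters of these 3 checkpoint ligand genes are shown because each rose in KO in all 4 comparisons with WT. Cd40 did so too, but no promoter sequence was available for it. Each run below is the 250 bases before the RefSeq start site (GRCm38.p6), on the strand of the gene, with capitals marking a motif match. They are followed by a second Lgals9 match, after the start site, with its flanks.
Cd274, chr19:29367188-29367437, plus strand: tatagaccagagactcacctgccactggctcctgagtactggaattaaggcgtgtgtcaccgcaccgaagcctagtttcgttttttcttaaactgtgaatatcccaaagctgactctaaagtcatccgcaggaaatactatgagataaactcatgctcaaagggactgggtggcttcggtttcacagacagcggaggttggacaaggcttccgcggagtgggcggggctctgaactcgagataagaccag
Pdcd1lg2, chr19:29410669-29410918, plus strand: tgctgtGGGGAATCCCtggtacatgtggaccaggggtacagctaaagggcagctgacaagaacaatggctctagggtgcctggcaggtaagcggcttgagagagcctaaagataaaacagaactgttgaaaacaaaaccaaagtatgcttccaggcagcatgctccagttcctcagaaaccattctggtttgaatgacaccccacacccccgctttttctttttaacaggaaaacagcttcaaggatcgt
Lgals9, chr11:78984925-78985174, minus strand: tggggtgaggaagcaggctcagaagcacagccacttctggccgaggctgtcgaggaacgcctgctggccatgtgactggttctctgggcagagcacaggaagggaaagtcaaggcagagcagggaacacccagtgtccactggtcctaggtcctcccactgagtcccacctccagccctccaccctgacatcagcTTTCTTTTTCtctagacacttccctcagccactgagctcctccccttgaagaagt
Lgals9, chr11:78984894-78984914, minus strand: tgtggTTTCTGTTTCctagct
Windows of 250 bases before to 50 after the start were searched on both strands for 3 motifs: the interferon-stimulated response element core (TTTC, any 2 bases, then TTTC), the gamma-activated site core (TTCNNNGAA) and the NF-kB consensus. The table of promoters held 5 of the 9 genes: Cd80, Cd274, Pdcd1lg2, Icosl and Lgals9. Lgals9 held the interferon element core at positions -55 and 16 relative to the start, a match found in 3.44% of 32851 promoters. Pdcd1lg2 held 1 NF-kB match at position -244, where the consensus was met on both strands, and 4.51% of promoters held one. The gamma-activated core, which 8.3% of promoters held, was in none of the 5 windows, and the Cd80, Cd274 and Icosl windows held no match to any of the 3. The matches describe these letters and not binding.

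Cd80 and Cd86 encode the 2 ligands of CD28 and CTLA4 and lie on chromosome 16 (Cd80 at 38455561 to 38496335, Cd86 at 36603869 to 36666081). Cd80 had 13.5, 10.8, 10.2 and 11.3 CPM in KO HFD CD11c+ libraries, against 3.32, 4.49, 4.65 and 3.67 CPM in WT HFD CD11c+ libraries. It had 12.9, 18.4, 12.6 and 9.52 CPM in KO SD CD11c+ libraries, against 22.4, 18.6, 17.4 and 15.9 CPM in WT SD CD11c+ libraries. KO libraries were above all WT libraries on HFD, while on SD the groups overlapped and the WT mean was higher. CD206+ libraries on HFD had 14.1, 15.1, 11.2 and 9.13 CPM in KO and 4.89, 5.39, 5.83 and 5.28 CPM in WT. CD206+ libraries on SD had 10.7, 13.5, 12.4 and 12.6 CPM in KO and 13.7, 13.0, 10.7 and 15.3 CPM in WT. The CD206+ groups were apart on HFD, where the WT libraries were low, and overlapped on SD. The log2 fold change of KO over WT was 1.50 ± 0.18, adjusted p = 7.75e-08 in CD11c+ and 1.21 ± 0.17, adjusted p = 3.70e-06 in CD206+ cells on HFD. On SD it was -0.48 ± 0.17, adjusted p = 0.0317 in CD11c+ and -0.10 ± 0.17, adjusted p = 0.722 in CD206+ cells. The CD11c+ SD call was lost in 5 of 32 fits, those without KO SD CD11c+ library 1, 3 or 4 or WT SD CD11c+ library 1 or 2 (adjusted p up to 0.145), and with library totals alone as the scaling (adjusted p = 0.0550). The difference between the diets was called in both populations, at 1.98 ± 0.24, adjusted p = 3.38e-07 in CD11c+ and 1.31 ± 0.24, adjusted p = 4.31e-04 in CD206+ cells.

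The diet comparison itself put the change of Cd80 in the WT mice. On HFD, Cd80 fell in WT CD11c+ cells to a mean of 4.03 ± 0.640 CPM, against 18.6 ± 2.77 CPM on SD (SD, n = 4 each; log2 -2.20 ± 0.18, adjusted p = 2.59e-11). It fell in WT CD206+ cells to 5.35 ± 0.387 CPM, against 13.2 ± 1.90 CPM on SD (log2 -1.30 ± 0.17, adjusted p = 1.38e-06). The fall was larger in CD11c+ cells (-0.90 ± 0.24, adjusted p = 0.00527). In KO mice the diet difference was -0.22 ± 0.17 in CD11c+ and 0.00 ± 0.17 in CD206+ cells, and neither was called. Between the populations Cd80 was called only in WT mice on SD, higher in CD11c+ cells (0.50 ± 0.17, adjusted p = 0.0106), a call lost without WT SD CD11c+ library 1 (log2 0.38, adjusted p = 0.0648) and with library totals alone (adjusted p = 0.0962). The gene whose group means were second most like those of Cd80 was Zbtb46, a transcription factor gene used as a dendritic cell marker. The dendritic cell markers summed to 183 to 321 CPM in WT HFD CD11c+ libraries, against 544 to 996 CPM in WT SD CD11c+ libraries, and their part in the Cd80 difference was not tested.

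Cd86 was more abundant than Cd80. It had 112, 126, 118 and 124 CPM in KO HFD CD11c+ libraries, against 58.7, 64.4, 75.7 and 55.7 CPM in WT HFD CD11c+ libraries. It had 129, 158, 137 and 144 CPM in KO SD CD11c+ libraries, against 177, 133, 164 and 104 CPM in WT SD CD11c+ libraries. As for Cd80, the genotypes were apart on HFD and overlapped on SD. Cd86 in CD206+ libraries on HFD was at 202, 173, 165 and 172 CPM in KO and 146, 135, 144 and 121 CPM in WT. In those on SD it was at 189.6, 205.7, 189.9 and 232 CPM in KO and 202, 179, 215 and 229 CPM in WT. The KO-to-WT log2 fold change was 0.91 ± 0.12, adjusted p = 6.88e-07 in CD11c+ and 0.38 ± 0.12, adjusted p = 0.0228 in CD206+ cells on HFD, and -0.03 ± 0.12 and -0.01 ± 0.12 on SD, where neither was called. The CD206+ HFD call was lost without KO HFD CD206+ library 1 or WT HFD CD206+ library 4 (adjusted p up to 0.101), and with library totals alone as the scaling (adjusted p = 0.0774). The diets differed in the genotype effect in CD11c+ cells (0.94 ± 0.17, adjusted p = 1.02e-04); in CD206+ cells the test gave 0.39 ± 0.17, adjusted p = 0.137. In WT mice Cd86 fell on HFD in CD11c+ cells (-1.18 ± 0.12, adjusted p = 3.75e-09) and in CD206+ cells (-0.59 ± 0.12, adjusted p = 4.77e-04), more so in CD11c+ cells (-0.59 ± 0.17, adjusted p = 0.00890). In KO mice the diet differences were -0.24 ± 0.12 in CD11c+ and -0.20 ± 0.12 in CD206+ cells, not called.

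Cd86 was the one gene of the 9 that was called in all 4 population comparisons, always lower in CD11c+ than in CD206+ cells. The log2 difference was -0.57 ± 0.12, adjusted p = 3.96e-04 in KO mice on HFD and -0.53 ± 0.12, adjusted p = 6.98e-04 in KO mice on SD. It was -1.10 ± 0.12, adjusted p = 1.75e-07 in WT mice on HFD and -0.51 ± 0.12, adjusted p = 5.99e-04 in WT mice on SD. Sorted CD11c+ cells of WT mice on HFD carried the lowest Cd86 of the 8 groups, at 63.6 ± 8.82 CPM, against 137 ± 11.6 CPM in WT HFD CD206+ cells (SD, n = 4 each).

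Icosl (chromosome 10, 78069302 to 78083913) encodes the ligand of ICOS, a receptor of activated T cells. It had 14.5, 24.0, 22.2 and 28.9 CPM in KO HFD CD11c+ libraries, against 12.7, 19.9, 14.0 and 12.1 CPM in WT HFD CD11c+ libraries. It had 29.0, 30.04, 26.5 and 27.0 CPM in KO SD CD11c+ libraries, against 56.0, 49.0, 50.9 and 48.9 CPM in WT SD CD11c+ libraries. The genotypes overlapped on HFD, while on SD every KO library was below every WT library. Icosl in CD206+ libraries on HFD was at 42.4, 33.8, 31.1 and 32.2 CPM in KO and 27.7, 31.0, 29.98 and 21.7 CPM in WT. In those on SD it was at 36.6, 31.7, 39.9 and 41.1 CPM in KO and 60.4, 51.5, 44.4 and 53.2 CPM in WT, with the KO libraries all lower. In CD11c+ cells Icosl therefore rose in KO on HFD (0.61 ± 0.16, adjusted p = 0.00312) and fell in KO on SD (-0.86 ± 0.16, adjusted p = 1.00e-04), and the test of the difference gave 1.48 ± 0.23, adjusted p = 8.63e-06. In CD206+ cells the KO-to-WT log2 fold change was 0.34 ± 0.16, adjusted p = 0.128 on HFD and -0.49 ± 0.16, adjusted p = 0.0209 on SD, with a difference of 0.83 ± 0.22, adjusted p = 0.0128. The CD206+ SD call was lost without KO SD CD206+ library 2 or WT SD CD206+ library 1 or 4 (adjusted p up to 0.101). The diet contrast gave the same picture as for Cd80. Icosl fell on HFD in WT CD11c+ cells (-1.80 ± 0.16, adjusted p = 2.09e-10) and WT CD206+ cells (-0.92 ± 0.16, adjusted p = 4.99e-05), and the 2 falls differed (-0.88 ± 0.22, adjusted p = 0.00295), while in KO mice the log2 differences were -0.33 ± 0.16 and -0.10 ± 0.16, not called.

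Icosl was lower in CD11c+ than in CD206+ cells of KO mice on HFD (-0.64 ± 0.16, adjusted p = 0.00166), of KO mice on SD (-0.41 ± 0.16, adjusted p = 0.0300) and of WT mice on HFD (-0.91 ± 0.16, adjusted p = 1.34e-04). The KO SD call was lost in 6 of 32 fits, those without library 1, 3 or 4 of KO SD CD11c+ or of KO SD CD206+ (adjusted p up to 0.0775). In WT mice on SD the populations had 51.2 ± 3.31 CPM in CD11c+ cells and 52.3 ± 6.57 CPM in CD206+ cells (SD, n = 4 each), a difference of -0.03 ± 0.15, adjusted p = 0.866. The immediate early genes moved alongside. The 28 on the list, led by Junb and Fos, summed to 12372 to 17475 CPM in KO HFD CD11c+, 10778 to 12523 CPM in WT HFD CD11c+, 13474 to 18393 CPM in KO SD CD11c+ and 21827 to 27886 CPM in WT SD CD11c+ libraries. In CD206+ libraries the sums were 20585 to 23893 CPM in KO HFD, 17321 to 19947 CPM in WT HFD, 16978 to 34368 CPM in KO SD and 31463 to 38877 CPM in WT SD. Within each population the WT SD group, which was highest for Icosl, was also highest for these genes in the mean. Across populations the orders differed: the mean sum was 27263 CPM in KO SD CD206+ and 24706 CPM in WT SD CD11c+ libraries. The part of immediate early genes in the Icosl result was not tested.

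Cd83 (chromosome 13, 43784775 to 43803132) marks mature dendritic cells and activated B cells, and its product is known to stabilise MHC class II and CD86 at the cell surface. It ranged over 656 to 1066 CPM in KO HFD CD11c+ libraries, against 1122 to 2057 CPM in WT HFD CD11c+ libraries. It ranged over 567 to 1261 CPM in KO SD CD11c+ libraries, against 1197 to 2003 CPM in WT SD CD11c+ libraries. KO libraries were lower in the mean, with no overlap on HFD and overlap on SD. CD206+ libraries on HFD ranged over 891 to 1707 CPM in KO and 1535 to 2557 CPM in WT. CD206+ libraries on SD ranged over 596 to 1476 CPM in KO and 1057 to 1769 CPM in WT, and both pairs of CD206+ groups overlapped. The log2 fold change was -0.95 ± 0.26, adjusted p = 0.00437 in CD11c+ cells on HFD and -0.97 ± 0.26, adjusted p = 0.00567 on SD. In CD206+ cells it was -0.75 ± 0.26, adjusted p = 0.0368 on HFD, a call lost without KO HFD CD206+ library 1, 3 or 4 or WT HFD CD206+ library 1 or 2 (adjusted p up to 0.133). On SD it was -0.42 ± 0.26, adjusted p = 0.253, which missed the threshold. Cd83 was called, without pairing of libraries, in none of the 4 diet comparisons (-0.07 to 0.48 on the log2 scale), none of the 4 population comparisons and none of the 6 interactions. Replicates of Cd83 spread widely, with an SD of 381 CPM around a mean of 1088 CPM in KO SD CD206+ cells.

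Tnfsf9 (chromosome 17, 57105325 to 57107757), encoding the ligand of CD137, gave the fewest calls. It ranged over 55.0 to 97.7 CPM in KO HFD CD11c+ libraries, against 74.2 to 149 CPM in WT HFD CD11c+ libraries. It ranged over 59.0 to 109.9 CPM in KO SD CD11c+ libraries, against 123 to 170.1 CPM in WT SD CD11c+ libraries. Those SD groups did not overlap, and the HFD groups did. CD206+ libraries ranged over 38.4 to 77.0 CPM in KO HFD, 67.7 to 119 CPM in WT HFD, 61.1 to 83.2 CPM in KO SD and 75.2 to 113 CPM in WT SD. The one genotype call was lower in KO in CD11c+ cells on SD (-0.67 ± 0.23, adjusted p = 0.0280). That call was lost without KO SD CD11c+ library 1 or 4 or WT SD CD11c+ library 3 (adjusted p up to 0.115). The other log2 fold changes of KO over WT were -0.51 ± 0.23, adjusted p = 0.0813 in CD11c+ cells on HFD, -0.58 ± 0.23, adjusted p = 0.0668 in CD206+ cells on HFD and -0.45 ± 0.23, adjusted p = 0.162 in CD206+ cells on SD. Diet was called in no comparison. Between populations Tnfsf9 was not called in the unpaired fit of all libraries. In WT mice on SD that fit gave 0.51 ± 0.23, adjusted p = 0.0532, just above the threshold. Of 32 unpaired fits that left out 1 library, 17 passed it. Once same-numbered libraries were paired, Tnfsf9 was called higher in CD11c+ cells of WT mice on SD (log2 0.51, adjusted p = 2.05e-04). A long noncoding RNA gene on the opposite strand, Gm11110, overlaps Tnfsf9, so its reads cannot be told apart from those of Tnfsf9 without the strand setting.

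Set side by side, the diet comparisons gave calls in WT mice and none in KO mice. In WT CD11c+ cells, Cd80, Cd86, Icosl, Pdcd1lg2 and Lgals9 fell on HFD and Cd40 rose, 6 of 9 genes, where 46.3% of all genes were called (23.8% higher and 22.6% lower; 3196 genes higher and 3038 lower, and 3983 genes higher and 2288 lower with library totals alone as the scaling). In WT CD206+ cells, Cd40, Cd80, Cd86, Icosl and Lgals9 fell, 5 of 9, where 27.7% of all genes were called (14.2% higher and 13.5% lower). Cd274 missed the threshold in both WT populations (-0.62 ± 0.33, adjusted p = 0.123 in CD11c+ and -0.81 ± 0.33, adjusted p = 0.0684 in CD206+ cells). In KO CD11c+ cells edgeR called 0 of the 9 genes and 0.00743% of all genes, with Cd40 and Icosl at an unadjusted p under 0.05, and DESeq2 also called 0 of the 9. In KO CD206+ cells edgeR called 0 of the 9 genes and 0% of all genes, with Cd40, Cd274 and Pdcd1lg2 at an unadjusted p under 0.05, and DESeq2 again called 0 of the 9. The point values in KO CD11c+ cells were all negative, from -0.46 to -0.04 on the log2 scale. The tests between genotypes called 6 of 9 genes in CD11c+ cells (28.8% of all genes) and 2 of 9 in CD206+ cells (11.9% of all genes). The calls in CD11c+ cells were Cd40, Cd80, Cd86, Pdcd1lg2, Icosl and Lgals9, and in CD206+ cells Cd80 and Icosl. The 2 WT populations differed in their diet effect for Cd40, Cd80, Cd86 and Icosl, 4 of 9 genes, where 32.4% of all genes were called. Once same-numbered libraries were paired, 6 of 9 were called, with Lgals9 (log2 -0.38, adjusted p = 0.0170; unpaired -0.40 ± 0.17, adjusted p = 0.0681) and Cd83 (log2 -0.56, adjusted p = 0.0425; unpaired -0.55 ± 0.37, adjusted p = 0.265) added, and DESeq2 called 5, with Lgals9 added. Unpaired, the Lgals9 test passed in 12 of 32 fits that left out 1 library. In KO mice the comparison of diet effects between populations called 0 of 9 with edgeR and with DESeq2, and 0% of all genes. None of the 9 had an unadjusted p under 0.05 there.

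Markers of other cells moved with diet in the same WT comparisons. In WT CD11c+ cells HFD had 1 higher and 21 lower of the 28 immediate early genes, 0 higher and 7 lower of the 16 dendritic cell markers, 6 higher and 0 lower of 6 tested mast cell markers, 8 higher and 1 lower of 10 stromal markers and 1 higher and 2 lower of 8 adipocyte markers. In WT CD206+ cells it had 0 higher and 16 lower, 0 higher and 7 lower, 6 higher and 0 lower, 8 higher and 0 lower and 0 higher and 6 lower in the same order. The mast cell markers, led by Tpsb2 and Cma1, summed to 11.9 to 42.7 CPM in WT HFD CD11c+ libraries, against 1.02 to 1.50 CPM in WT SD CD11c+ libraries, and to 20.1 to 118 CPM in WT HFD CD206+ libraries, against 2.39 to 11.6 CPM in WT SD CD206+ libraries, and Ms4a2 was at 0 in all WT SD CD11c+ libraries. The stromal markers summed to 198 to 598 CPM in WT HFD CD11c+ libraries, against 78.7 to 179 CPM in WT SD CD11c+ libraries, and to 436 to 1901 CPM in WT HFD CD206+ libraries, against 227 to 737 CPM in WT SD CD206+ libraries. No gene of these 5 lists was called with diet in KO mice. The part of these markers in the diet differences of the 9 genes was not tested.

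**Figure D3:**
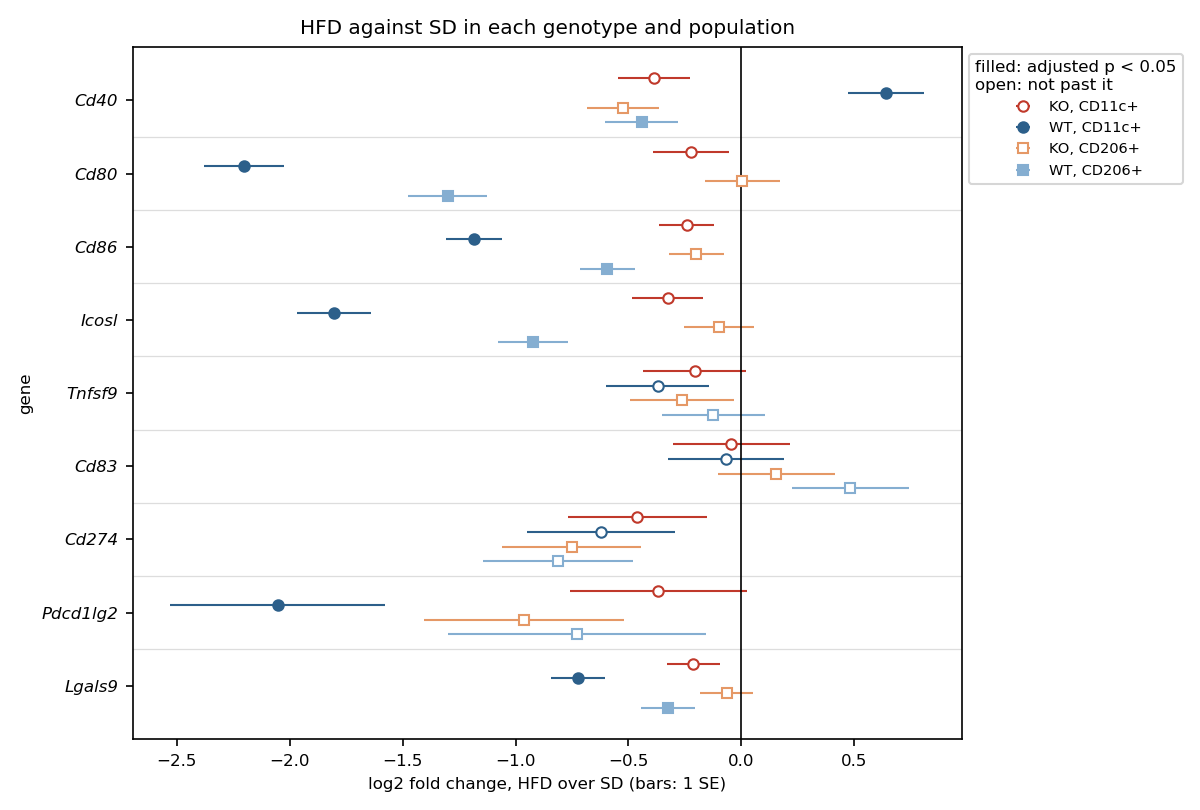
Log2 fold change of HFD over SD for each gene in KO and WT mice of each population, with bars of 1 SE and filled symbols where adjusted p was under 0.05 (edgeR quasi-likelihood test, 4 libraries against 4). The filled symbols are all WT (Cd80 in CD11c+ cells at -2.20, Icosl at -1.80), and Cd40 in WT CD11c+ cells (0.64) is the one filled symbol above 0.

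The populations were compared within each genotype and diet. CD11c+ cells had 1 gene higher (Pdcd1lg2) and 2 lower (Cd86 and Icosl) in KO mice on HFD, where 45.8% of all genes were called (23.3% higher and 22.5% lower). In KO mice on SD, Pdcd1lg2 was higher and Cd40, Cd86 and Icosl were lower (51.7% of all genes called, 25.6% higher and 26.1% lower). In WT mice on HFD no gene was higher and Cd40, Cd86 and Icosl were lower (20.4% called, 11.7% higher and 8.70% lower). In WT mice on SD, Cd80 and Pdcd1lg2 were higher and Cd40 and Cd86 lower (63.7% called, 30.2% higher and 33.5% lower). Once same-numbered libraries were paired, Cd274 was added as higher in WT mice on HFD and Tnfsf9 as higher in WT mice on SD, as given above. Over all genes, library totals alone as the scaling moved each split towards lower: in KO mice to 2544 genes higher and 3551 lower on HFD, against 3136 genes higher and 3031 lower with TMM, and to 2863 genes higher and 4045 lower on SD, against 3440 genes higher and 3509 lower with TMM. In WT mice it was 1060 genes higher and 1578 lower on HFD, against 1575 genes higher and 1171 lower with TMM, and 2976 genes higher and 5656 lower on SD, against 4059 genes higher and 4506 lower with TMM. Markers of tissue cells differed as well. Of the 10 stromal markers, CD11c+ cells had 1 higher and 7 lower in KO mice on HFD, 1 higher and 8 lower in KO mice on SD, 0 higher and 4 lower in WT mice on HFD and 1 higher and 9 lower in WT mice on SD. Of the 8 endothelial markers they had 0 higher and 6 lower, 0 higher and 7 lower, 0 higher and 2 lower and 0 higher and 8 lower, and of the 8 adipocyte markers 0 higher and 8 lower, 0 higher and 8 lower, 0 higher and 0 lower and 0 higher and 8 lower in the same order, and the part of these markers was not tested. The members' shares called, 3 or 4 of 9, were below or near the share of all genes in each comparison but that of WT mice on HFD. The genotype effect was tested for a difference between the populations in each diet. On SD it was called for Cd40, 1 of 9 (6.57% of all genes). On HFD edgeR called 0 of 9 (4.36% of all genes), with Cd40, Cd86 and Pdcd1lg2 at an unadjusted p under 0.05, and DESeq2 called 1, Cd86.

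**Figure D4:**
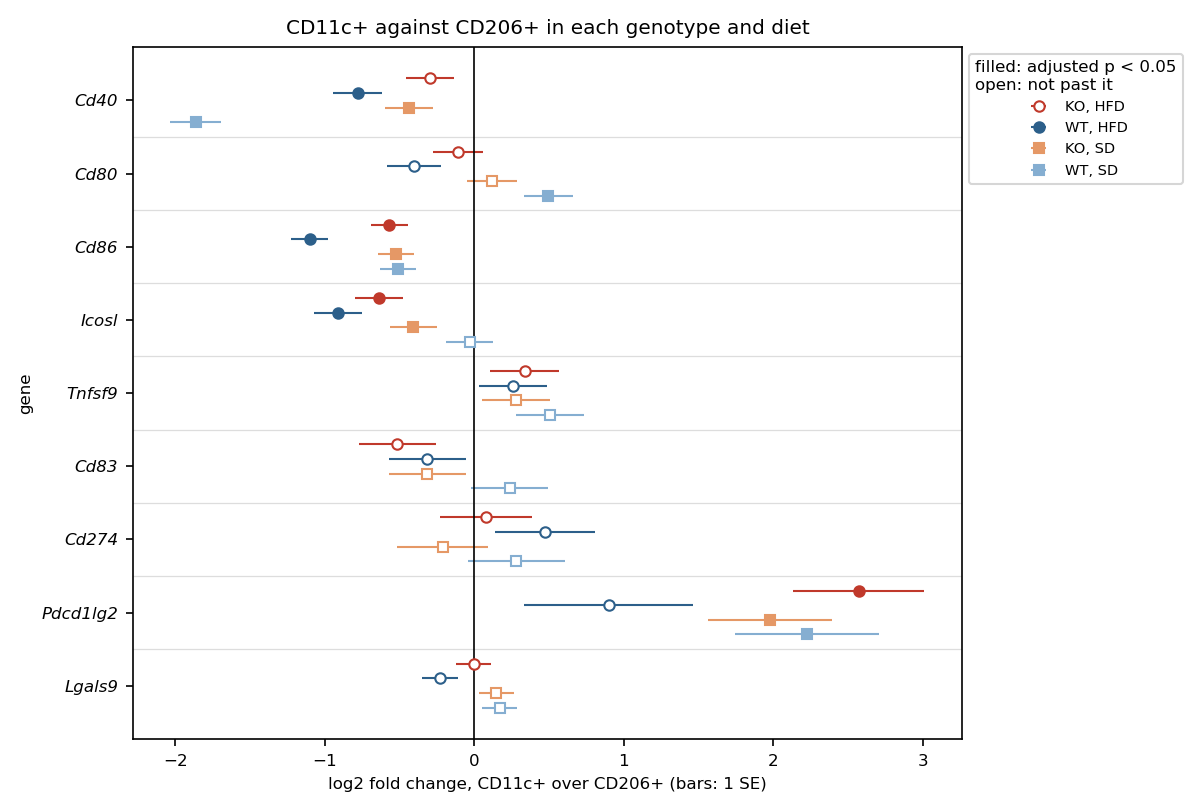
Log2 fold change of CD11c+ over CD206+ cells for each gene in each genotype and diet, with bars of 1 SE and filled symbols where adjusted p was under 0.05 (edgeR quasi-likelihood test, 4 libraries against 4). Cd86 is below 0 and past the threshold in all 4 (from -1.10 to -0.51), and Pdcd1lg2 is past it above 0 in 3, at 2.57, 1.98 and 2.22.

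The 9 genes did not share 1 profile over the 8 groups. Likeness was measured as the root mean square difference between the log2 group means of 2 genes after centring each on its own mean. Among the 9, Cd86 and Icosl were closest (0.31), Cd83 and Tnfsf9 were at 0.38, and Cd83 and Cd274 were farthest apart (1.68). Over 8068 genes with at least 10 CPM on average, the 3 nearest to Cd274 were Isg15 (0.23), Zbp1 (0.27) and Spint2 (0.34). Isg15 and Zbp1 are interferon-stimulated genes, which describes the neighbours and not Cd274. The nearest to Cd40 were Aif1 (0.19), Csf3r (0.22) and Rtp4 (0.22), of which Csf3r is on the list of neutrophil markers. Those nearest to Pdcd1lg2 were Ccnd2 (0.30), Fgr (0.38) and Traf1 (0.40), at larger distances. Cd80 was nearest to Pilrb2 (0.13), Zbtb46 (0.16) and Arhgap15 (0.17), and Cd86 to Klf4 (0.16), Fgd2 (0.18) and Tmcc1 (0.18). Icosl was nearest to Btg2 (0.14), Tob1 (0.15) and Fosb (0.16), of which Btg2 and Fosb are immediate early genes. Lgals9 was nearest to Sp140 (0.09), Pnp (0.12) and Lcp2 (0.14). Cd83 was nearest to Mt1 (0.11), Scmh1 (0.15) and Pde3b (0.16), and Tnfsf9 to Hdac7 (0.08), Ak3 (0.13) and Sfxn3 (0.13). These distances rest on 8 group means that share their libraries, and are given as a description.

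**Figure D5:**
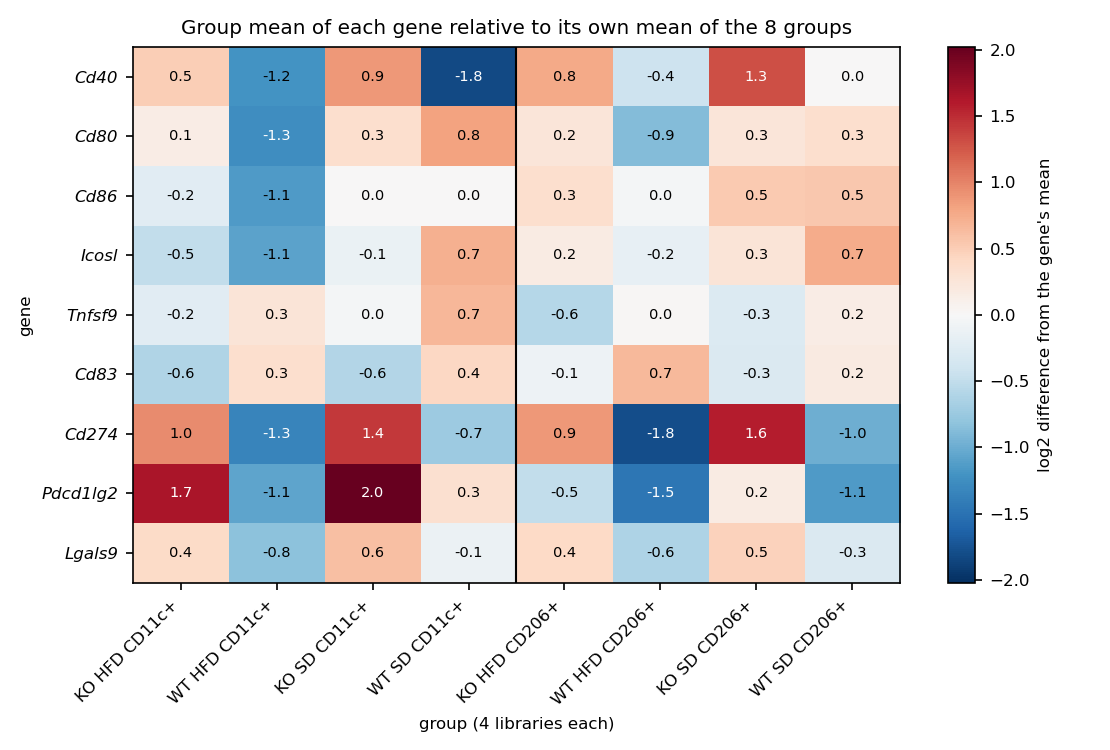
Mean log2 level of each gene in each group of 4 libraries, as the difference from the gene's own mean of the 8 groups, with red above and blue below it. Cd274 alternates between KO and WT columns in both populations (for example 0.96 in KO HFD CD11c+ and -1.34 in WT HFD CD11c+), while Icosl and Cd80 are lowest in WT HFD CD11c+ (-1.08 and -1.25).

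Other genes of co-stimulation were followed through 5 lists, counted against the same shares of all genes given above. The list of other co-signalling ligands held 34 symbols, some of them older and newer names of 1 gene, and 27 genes could be tested. KO cells had 14 higher and 9 lower in CD11c+ cells on HFD, 8 higher and 5 lower on SD, 10 higher and 6 lower in CD206+ cells on HFD and 10 higher and 4 lower on SD. The median log2 fold changes were 0.31, 0.11, 0.28 and 0.28 in that order. In CD11c+ cells on HFD, Sema4a, a semaphorin gene, averaged 355 against 52.2 CPM (KO, then WT; log2 2.77 ± 0.19). There Pvrl2, the gene of nectin-2, averaged 43.1 against 8.08 CPM (2.41 ± 0.25). Timd4, encoding a phosphatidylserine receptor of resident macrophages, averaged 13.3 against 0.727 CPM (4.18 ± 0.54). Alcam, the gene of the CD6 ligand, fell in KO in all 4 comparisons (-1.22, -0.98, -1.78 and -1.03). Cd276, encoding B7H3, fell in KO in CD11c+ cells on HFD (-1.46 ± 0.36) and in CD206+ cells on HFD (-1.90 ± 0.37) and on SD (-1.02 ± 0.36). Lgals3, encoding galectin-3, fell in CD206+ cells on HFD, averaging 614 against 1491 CPM for KO and WT (log2 -1.28 ± 0.11), opposite to Lgals9. On HFD in WT CD11c+ cells the list had 8 higher and 8 lower, with Sema4a at -2.73 ± 0.19 and Cd24a, a mucin-like surface protein gene, at -3.78 ± 0.32 among the lower and Ly9, a SLAM family receptor gene, at 1.86 ± 0.21 and Lgals1, the gene of galectin-1, at 1.75 ± 0.11 among the higher. In WT CD206+ cells it had 7 higher and 5 lower. In KO mice diet called none of the list.

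Genes of the CD40 signalling path (14 tested) were tested in the same comparisons of KO with WT. In KO they had 8 higher and 0 lower in CD11c+ cells on HFD, 7 higher and 2 lower on SD, 7 higher and 2 lower in CD206+ cells on HFD and 9 higher and 0 lower on SD. Traf1, encoding an adaptor of TNF receptor family members, rose in all 4, by log2 2.02 ± 0.18, 0.81 ± 0.18, 1.51 ± 0.18 and 1.65 ± 0.18. Relb, a subunit gene of the noncanonical NF-kB pathway, rose in CD11c+ cells on HFD (1.06 ± 0.12) and on SD (1.06 ± 0.12) and in CD206+ cells on SD (1.23 ± 0.12). Rel, another subunit gene, fell in KO CD11c+ cells on SD (-0.47 ± 0.13) and CD206+ cells on HFD (-0.52 ± 0.13). In WT CD11c+ cells on HFD none of the list rose and 5 fell, among them Traf1 (-1.63 ± 0.18) and Map3k14, the NF-kB inducing kinase gene (-1.19 ± 0.18). In WT CD206+ cells on HFD 4 rose, among them Traf3 (0.53 ± 0.17) and Nfkb1 (0.60 ± 0.12), and 1 fell, Map3k14 (-0.96 ± 0.18).

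The route from interferon-gamma to IRF1, which is known to induce PD-L1, was followed through 12 genes. In KO they had 8 higher and 0 lower in CD11c+ cells on HFD, 4 higher and 1 lower on SD, 3 higher and 0 lower in CD206+ cells on HFD and 8 higher and 0 lower on SD. Socs1, which encodes a feedback inhibitor of this route, rose in KO in all 4 (1.42, 1.06, 1.24 and 0.93). Irf1 itself was called in CD206+ cells on SD (0.76 ± 0.20) and in none of the other 3. In WT CD11c+ cells HFD gave 2 higher and 9 lower: Irf8, a transcription factor gene of the myeloid lineage, rose (1.58 ± 0.22) and Socs3, a feedback inhibitor gene, fell (-1.29 ± 0.17). In WT CD206+ cells it gave 1 higher and 2 lower.

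The receptors that these ligands meet on T cells were tested in the same libraries (21 genes). In KO they had 15 higher and 0 lower in CD11c+ cells on HFD, 3 higher and 3 lower on SD, 12 higher and 1 lower in CD206+ cells on HFD and 6 higher and 2 lower on SD. Cd226 had the highest level among those named: it averaged 170.2 against 22.2 CPM for KO and WT CD11c+ cells on HFD (log2 2.94 ± 0.28). Cd2 rose in KO CD11c+ cells on HFD (2.18 ± 0.35) and fell in KO on SD (-1.93 ± 0.33). Havcr2, the receptor gene paired with galectin-9, rose in KO CD11c+ cells on SD (1.15 ± 0.28) and fell in KO CD206+ cells on HFD (-1.09 ± 0.28). The 12 T and NK cell markers, led by Cd4 and Il7r, summed to 58.9 to 89.8 CPM in KO HFD CD11c+ and 89.7 to 111 CPM in WT HFD CD11c+ libraries. In HFD CD206+ libraries they summed to 79.2 to 144 CPM in KO and 35.5 to 38.2 CPM in WT. Of the 11 tested markers, KO had 8 higher and 1 lower in both populations on HFD. The part of these markers in the receptor counts was not tested. Of the 6 genes of ligand display and turnover that could be tested, Cd74, the invariant chain gene of MHC class II, rose in KO on HFD in CD11c+ (0.86 ± 0.15) and CD206+ cells (0.59 ± 0.15). Cmtm6, encoding a protein that protects PD-L1 from degradation, rose slightly in KO CD11c+ cells on HFD (0.29 ± 0.08) and fell in KO on SD (-0.39 ± 0.08). March1, the gene of a ubiquitin ligase that removes CD86 from the surface, was lower in CD11c+ than in CD206+ cells of KO mice on HFD (-0.69 ± 0.17), KO mice on SD (-0.87 ± 0.17) and WT mice on SD (-0.77 ± 0.17).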

How the data were processed

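RNA was measured by sequencing in 32 libraries of sorted macrophages, 4 for each of the 8 groups. Reads were processed on the mouse build mm10 (GRCm38) with TopHat2 2.1.0, SAMtools 0.1.18, Trimmomatic 0.35 and FastQC 0.11.4, per the submitters' processing notes, which give no roles. The authors deposited whole-number read counts per gene, without normalization. The sources used here name neither the counting tool, nor its strand setting, nor the annotation. The 5 rows that name no gene were left out: 5.16 to 11.1% of a library's reads lay in no gene and 0.992 to 1.48% were ambiguous.

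Counts were fitted with edgeR 4.0.16 in R 4.3.3: TMM scaling (factors 0.856 to 1.08), genes with enough counts by filterByExpr with a minimum count of 10, 1 mean for each of the 8 groups, and the quasi-likelihood test, with Benjamini-Hochberg adjustment over all 13453 genes of each of 18 contrasts. An SE is the absolute log2 fold change over the square root of F, and ± beside a log2 fold change is that SE. No pair of libraries agreed within sampling noise: replicates differed by a chi-square of 10.4 to 63.8 per degree of freedom over genes. Alternatives were DESeq2 1.42.0, other scalings, no filter, only the groups compared, 2 forms of pairing, and leaving out each library.

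Library numbers in the labels are shared across groups. The deviations of same-numbered CD11c+ and CD206+ libraries from their group means correlated above 0.1 in 14 of 16 cases (-0.060 to 0.576), in all 4 cases of KO SD, WT HFD and WT SD but not of KO HFD. They did so in 3 of 16 cases between genotypes and 3 of 16 between diets. Pairing is therefore given for population comparisons in those 3 settings. Each gene was named by a rule: all 9 members, the 3 genes nearest to each by group means (log2 with a prior of 0.5 CPM), and the largest changes of each list with at least 10 CPM. A gene that this rule names is not reported here. Irf1 was named after its values were seen. The members and the lists were chosen with earlier results of these data known. Promoter sequences are RefSeq's (GRCm38.p6), and exon lengths and coordinates are those of GENCODE M21.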

Additional observations from a re-analysis of the deposited data

Results flagged for a closer look

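Among the 72 sets of 4 libraries (9 genes in 8 groups), 5 held a library set apart from the other 3 by Dixon's criterion at the 95% level, where chance gives about 1 in 20. Cd40 stood at 170.4 CPM in KO SD CD11c+ library 4, and Cd274 at 166 CPM in the same library. Cd274 stood at 217 CPM in KO SD CD206+ library 4, which carries the same number. The other libraries of these groups were lower, so that 3 of the 5 concern high values of KO SD libraries numbered 4. Cd274 was low in WT SD CD206+ library 3, at 14.3 CPM, and Tnfsf9 was high in WT SD CD11c+ library 3, at 170.1 CPM. Without both KO SD libraries numbered 4, an alternative chosen after seeing the data, the Cd274 difference of KO over WT on SD was 1.91 in CD11c+ and 2.30 in CD206+ cells on the log2 scale, and that of Cd40 was 2.60 and 1.21, all still called.

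Of 54 tests of whether an effect differed between settings, 13 were called by edgeR. Between the diets, the effect of genotype in CD11c+ cells differed for Cd40 (log2 -1.03), Cd80 (1.98), Cd86 (0.94), Pdcd1lg2 (1.69), Icosl (1.48) and Lgals9 (0.51). In CD206+ cells it differed for Cd80 (1.31) and Icosl (0.83). Between the populations, the effect of genotype on SD differed for Cd40 (1.43). The effect of diet in WT mice differed between the populations for Cd40 (1.08), Cd80 (-0.90), Cd86 (-0.59) and Icosl (-0.88), and, once same-numbered libraries were paired, also for Lgals9 (-0.38) and Cd83 (-0.56). Cd40 had the opposite sign to the other genes in each of the sets it shares with them.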

How the results depend on the processing

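No value of the 9 genes changed sign past the threshold under the alternatives run, and 53 of the 66 calls in the 18 contrasts held in every fit that left out 1 library. Counts of the 9 genes moved by over 1.5 times in 3 comparisons. The genotype effect on HFD differed between populations for 1 gene (Cd86), in place of 0, with the DESeq2 Wald test, with only the groups of the contrast, and with the replicate block within genotype and diet. HFD against SD in WT CD206+ cells called 3 in place of 5 without the filter on low counts, losing Cd40 and Lgals9. CD11c+ against CD206+ in KO mice on HFD called 5 in place of 3 with that block (Cd83 -0.50, adjusted p = 0.00945, and Tnfsf9 0.35, adjusted p = 0.00925). There, same-numbered libraries correlated for numbers 3 and 4 (0.396 and 0.280) but not for 1 and 2 (-0.017 and -0.060). The cause was not tested. The additive replicate block over all groups changed 1 of 162 tests, and the block within genotype and diet changed 7 of 72.

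Leaving out 1 library gave 3 to 5 calls for HFD against SD in WT CD206+ cells (3 without WT HFD CD206+ library 2 or 4 or WT SD CD206+ library 1 or 4), 2 to 4 for the populations in KO mice on SD (2 without KO SD CD11c+ library 1 or 3 or KO SD CD206+ library 4) and 0 to 1 for the genotype effect between populations on HFD (1 without WT HFD CD11c+ library 3 or WT SD CD11c+ library 4). Without both KO SD libraries numbered 4, chosen after seeing the data, KO against WT on SD had 6 calls in CD11c+ cells (Cd80 and Tnfsf9 lost) and 5 in CD206+ cells. DESeq2's size factors changed 0 of 162 tests. Library totals alone moved the median of all genes by -0.18 in CD11c+ against CD206+ cells of WT mice on SD and by 0.12 in HFD against SD of WT CD11c+ cells, moved it by -0.10 in the genotype by diet test of CD11c+ cells, 0.11 in the genotype by population test on SD and 0.11 in the diet by population test of WT mice, and ended 4 calls, among them the genotype by diet test of Pdcd1lg2 (adjusted p = 0.0521). Depth limits Pdcd1lg2 most, which had 2 to 236 reads per library.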
